A study of Mus musculus with 2 samples.

Results

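The genes examined were the 10 enzymes Cad, Dhodh, Umps, Ppat, Gart, Pfas, Paics, Adsl, Atic and Impdh2, which build pyrimidine and purine nucleotides from simple precursors. They were taken by gene name from a table of 23084 gene symbols, and all 10 were found there and passed the filter on low values. RNA came from mouse embryonic fibroblasts (MEFs) of the ICR strain, primary cells grown from embryos. The labels give no genotype or embryo age, and both groups had the same dye treatment. The cells had been loaded with calcein, a dye that fills the cell, and with cobalt chloride, which quenches it outside closed mitochondria, and were then sorted by fluorescence. Cells with high calcein made up the low mPTP opening group and cells with low calcein the high mPTP opening group. The mPTP, the mitochondrial permeability transition pore, is a channel of the inner mitochondrial membrane. Each group had 1 library, so none of the differences has a replicate check, no p-value was computed, and all values describe these 2 libraries only.

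Cells obtain nucleotides by salvage of free bases and nucleosides or by de novo synthesis. In the purine route the ring is assembled on phosphoribosyl pyrophosphate (PRPP) in successive cytosolic steps that end at inosine monophosphate (IMP), from which AMP and GMP are made. In the pyrimidine route the ring is made first and then joined to PRPP to give orotidine and uridine monophosphate (UMP). One pyrimidine enzyme, dihydroorotate dehydrogenase, sits in the inner mitochondrial membrane and passes its electrons to ubiquinone, so this route depends on the respiratory chain. Dividing cells draw heavily on both routes, and several of the genes, Cad among them, are known MYC targets.

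All 10 enzymes had a higher level in the high mPTP opening library than in the low mPTP opening library. Levels are FPKM, reads or fragments per kilobase of exon sequence scaled by library depth. The ratio of high to low ran from 1.06 for Paics to 1.46 for Cad, and the median difference was 0.20 on the log2(FPKM + 1) scale, on which low genes appear closer together than their ratios. Among all 11898 measured genes, those with a mean of at least 1 FPKM, 45.4% had a positive difference and the median was -0.02. The differences were small: 1 of the 10 genes, Cad, was higher by at least 25% on that scale, against 6.59% of measured genes, and 0 of the 10 were higher by at least 1.5-fold, against 1.54%. None of the 10 was lower by at least 20%, the same size in the other direction, or by at least 1.5-fold, sizes that 13.3% and 4.38% of measured genes reached. The 95% interval of the ratio for counting error lay above 1 for 9 of the 10, against 20.4% of measured genes, and below 1 for 0 of the 10, against 26.4%. These shares are not matched for read number, on which the width of such an interval depends. Lists of related genes were counted by the same sizes, so that "higher" in a count means by at least 25% and "lower" by at least 20%.

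Promoter sequence is shown for the 8 members that had an entry among the RefSeq promoter windows of build GRCm38.p6, each of 300 bases, 250 before and 50 after the start. CACGTG, the E-box that MYC and MAX bind, was found in 3 of the 8, Paics, Atic and Impdh2, and in 7.15% of all 32851 windows or 10.1% of those of measured genes. The letters read the same on both strands. Each is shown in 30 bases with the E-box in capitals.
Paics: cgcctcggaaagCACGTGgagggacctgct
Atic: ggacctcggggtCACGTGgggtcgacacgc
Impdh2: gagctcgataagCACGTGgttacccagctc

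The Paics stretch is chr5:76951087-76951116, the Atic stretch chr1:71557137-71557166 and the Impdh2 stretch chr9:108560314-108560343, all on the plus strand. The Paics E-box, centred 200 bases before its RefSeq start, falls in the untranslated part of the first exon of Ppat, which is transcribed from the opposite strand. The E-boxes of Atic and Impdh2 fall at least in part in their own annotated untranslated exon sequence. The 3 genes with this E-box in the window had the 3 smallest ratios of the 10, an order seen after the values were known. Dhodh and Pfas had no window, so whether they hold the E-box is not known here. The counting intervals of the 3 ratios also overlap those of Ppat and Pfas. A match is a description of letters, and a missing match says only that they are not in this window.

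TGACGTCA, the full cyclic AMP response element, which also reads the same on both strands, was found in 1 of the 8 windows, that of Umps, and in 1.79% of all windows or 3.11% of those of measured genes. The Umps stretch is chr16:33967017-33967046 on the minus strand, and the motif lies in untranslated exon sequence. GGGCGG, the GC box, was counted on both strands and was in all 8 windows and in 64.4% of the windows of measured genes. Cad had 2 of them, shown as CCGCCC in capitals in the 156 bases before its deposited start, at chr5:31054624-31054779 on the plus strand. These 2 motifs were chosen after the sequences had been seen.
Umps: ggacttctgggTGACGTCAcgggccccaag
Cad: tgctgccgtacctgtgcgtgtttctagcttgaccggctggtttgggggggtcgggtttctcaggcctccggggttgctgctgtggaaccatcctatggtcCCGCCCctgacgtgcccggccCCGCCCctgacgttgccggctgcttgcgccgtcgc

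Of the pyrimidine enzymes, Cad stood highest in ratio. Cad (ENSMUSG00000013629, chromosome 5, 31054780 to 31078479, plus strand) encodes the protein that holds the first activities of the route, carbamoyl phosphate synthetase, aspartate transcarbamylase and dihydroorotase. It was at 17.1 FPKM in the high and 11.7 FPKM in the low mPTP opening library, from 2285 and 1437 reads. The ratio was 1.46 (95% interval 1.37 to 1.56), and the log2 difference of 0.51 lay at percentile 97.8 of the measured genes. The counting intervals of the 2 levels, 16.4 to 17.8 and 11.1 to 12.3 FPKM, did not overlap.

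Dhodh (ENSMUSG00000031730, chromosome 8, 109591343 to 109608673, minus strand) encodes the mitochondrial dihydroorotate dehydrogenase. It was at 2.43 FPKM in the high and 1.96 FPKM in the low mPTP opening library, the lowest level of the 10 in both. The ratio was 1.24 (1.02 to 1.51), from 252 and 187 reads, so its interval is the widest of the 10 and ends close to 1. Umps (ENSMUSG00000022814, chromosome 16, 33954782 to 33967038, minus strand) encodes the enzyme that joins orotate to PRPP and removes the carboxyl group to give UMP. It was at 10.2 FPKM in the high and 8.08 FPKM in the low library, a ratio of 1.26 (1.11 to 1.43). The 3 pyrimidine enzymes thus had the 3 highest ratios of the 10 by point value. The intervals of Umps and Dhodh overlap that of Cad, while those of the 7 purine enzymes end below the interval of Cad. The intervals of Umps and Dhodh also overlap those of all 7 purine enzymes. By interval only Cad stands apart from the purine enzymes. Overlap of intervals does not settle the order of 2 ratios, and differences between ratios were not tested. On the log2(FPKM + 1) scale Dhodh, at 0.21, came after the purine genes Gart and Adsl, because a pseudocount of 1 FPKM weighs on a gene at this level.

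**Figure D1:**
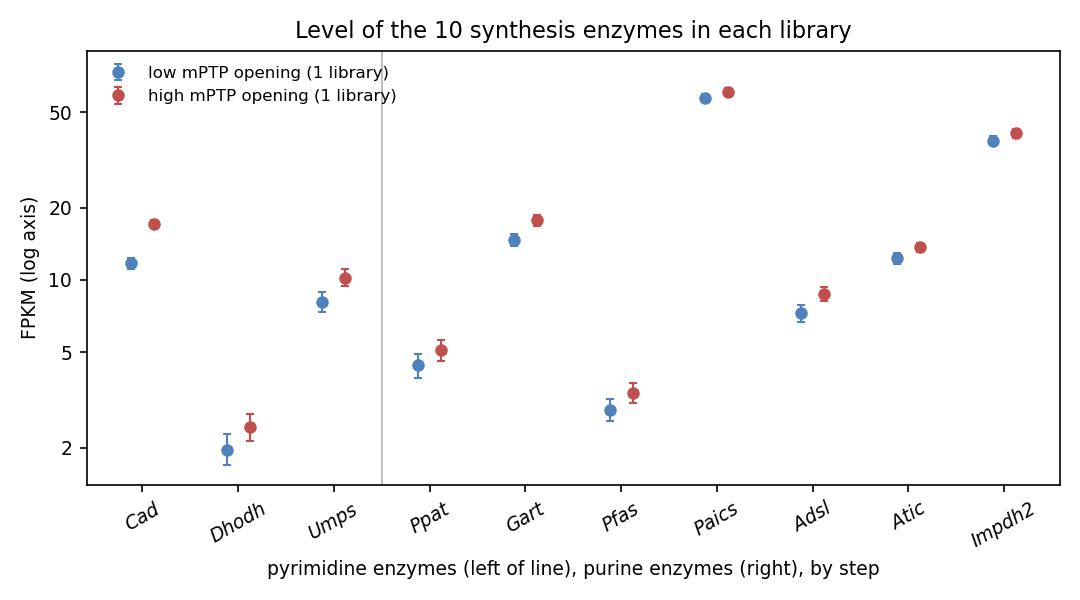
FPKM on a log axis of the 10 enzymes in the low (blue) and high (red) mPTP opening library, 1 library each, with 95% counting intervals; pyrimidine enzymes stand left of the line. The red point is above the blue one for all 10, with the widest gap at Cad, 17.1 against 11.7 FPKM.

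The early purine enzymes had ratios of 1.16 to 1.21. Ppat (ENSMUSG00000029246, chromosome 5, 76913249 to 76951578, minus strand) encodes the amidotransferase of the committed step. It was at 5.10 FPKM in the high and 4.40 FPKM in the low mPTP opening library, a ratio of 1.16 with an interval of 0.991 to 1.35. A difference of Ppat was thus not detectable at this depth, 369 and 293 reads. Gart (ENSMUSG00000022962, chromosome 16, 91621186 to 91646952, minus strand) encodes a protein with 3 activities of the early steps, one of which takes a formyl group from folate. It was at 17.7 FPKM in the high and 14.7 FPKM in the low library, a ratio of 1.21 (1.12 to 1.31), the largest of the purine enzymes. Pfas (ENSMUSG00000020899, chromosome 11, 68985697 to 69008460, minus strand), the glutamine-using amidine synthase, was at 3.37 and 2.86 FPKM in the high and low libraries, a ratio of 1.18 (1.02 to 1.36). The intervals of these 3 genes overlap one another.

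Later purine enzymes included the most abundant members, and these had the smallest ratios. Paics (ENSMUSG00000029247, chromosome 5, 76951307 to 76967509, plus strand) encodes the carboxylase and succinocarboxamide synthase of the middle of the route. It was at 60.7 FPKM in the high and 57.1 FPKM in the low mPTP opening library, a ratio of 1.06 (1.01 to 1.12). Adsl (ENSMUSG00000022407, chromosome 15, 80948490 to 80970947, plus strand), adenylosuccinate lyase, acts both before IMP and again on the way to AMP. Its level was 8.72 FPKM in the high and 7.25 FPKM in the low library, a ratio of 1.20 (1.08 to 1.34). Atic (ENSMUSG00000026192, chromosome 1, 71557150 to 71579631, plus strand), which adds the second formyl group and closes the ring to give IMP, was at 13.7 and 12.3 FPKM, a ratio of 1.12 (1.04 to 1.20). Impdh2 (ENSMUSG00000062867, chromosome 9, 108560286 to 108565584, plus strand), the rate-limiting enzyme from IMP towards GMP, was at 40.8 and 38.0 FPKM, a ratio of 1.07 (1.01 to 1.14). For Paics and Impdh2 the interval began only just above 1. The counting intervals of the 2 levels were apart for 5 members, Cad, Umps, Gart, Adsl and Atic, and overlapped for the other 5. The share of all measured genes with levels apart was not computed, and separation depends on read number. The count therefore does not show whether the members are unusual.

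**Figure D2:**
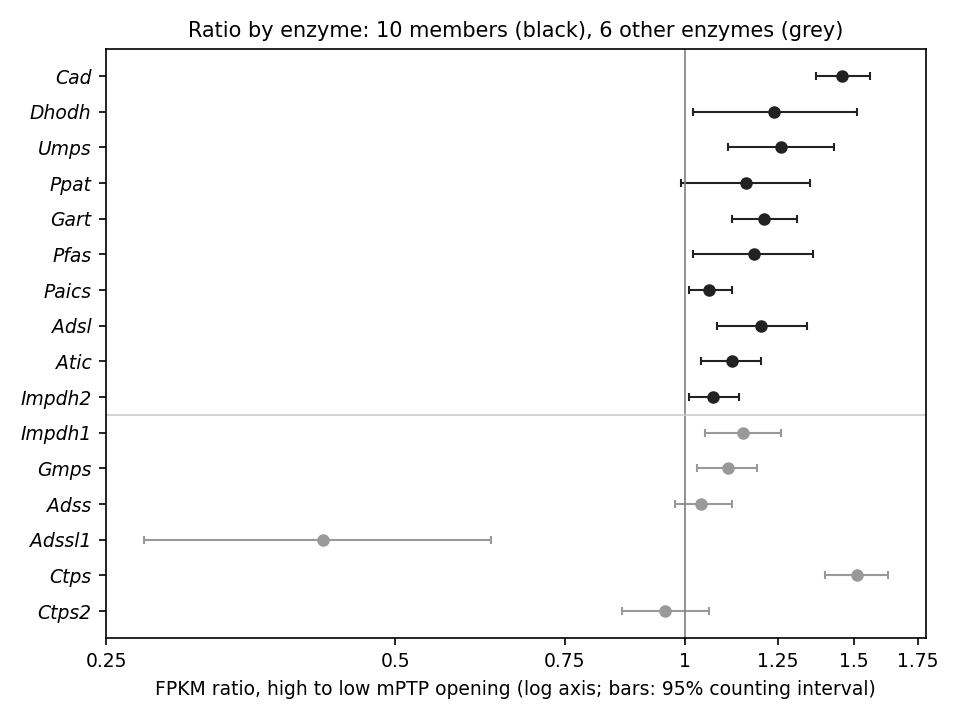
Ratio of FPKM, high to low mPTP opening, on a log axis with 95% counting intervals, for the 10 members in black and 6 other enzymes of AMP, GMP and CTP synthesis in grey. Intervals lie above 1 for 9 of the 10 members, and Cad (1.46) and Ctps (1.51) stand furthest to the right.

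As groups, the 3 pyrimidine enzymes had a median log2 difference of 0.30 and a range of 0.21 to 0.51, and the 7 purine enzymes a median of 0.17 and a range of 0.09 to 0.26. The summed level of the 10 was 180 FPKM in the high and 158 FPKM in the low mPTP opening library. In the pool of all measured genes the members' differences lay between percentile 70.0, for Paics, and percentile 97.8, for Cad. Most of them sit in the right shoulder of that distribution, with Cad alone further out.

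**Figure D3:**
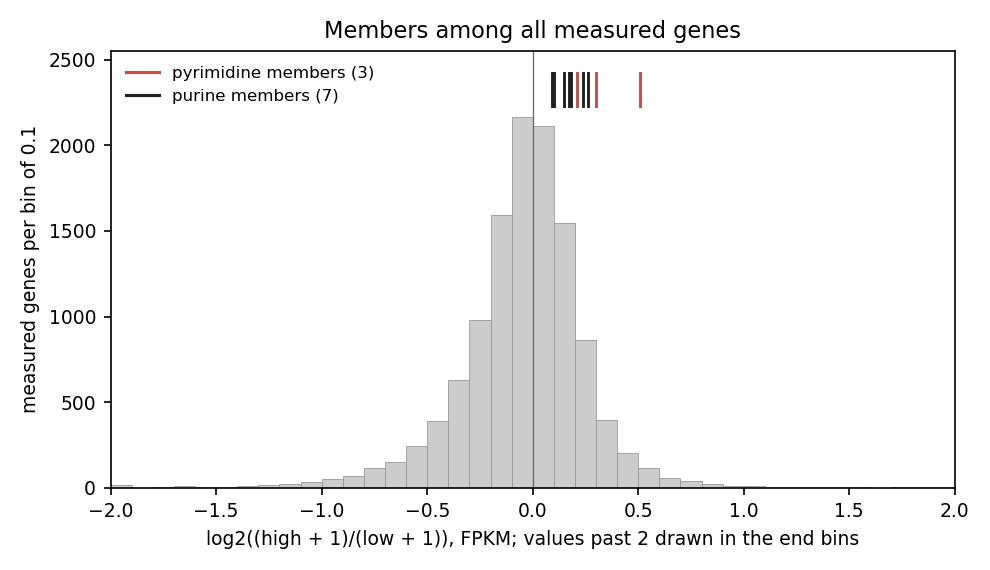
Histogram of log2((high + 1)/(low + 1)) of FPKM for the 11898 measured genes in bins of 0.1, with a tick for each of the 3 pyrimidine members (red) and 7 purine members (black). The ticks lie between 0.09 and 0.51, right of the median of all measured genes at -0.02.

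The order of levels among the members was nearly the same in both libraries. Paics was highest and Impdh2 next, then Gart, and Dhodh was lowest, with Paics 29.1 times Dhodh in the low and 25.0 times in the high mPTP opening library on the FPKM scale. Only Cad and Atic changed places, and 8 of the 10 kept their rank. In the low library Atic (11.6 to 12.9 FPKM) and Cad (11.1 to 12.3 FPKM) had overlapping intervals, and in the high library Cad overlapped Gart (16.8 to 18.6 FPKM) instead. In the low library Umps (7.33 to 8.89 FPKM) and Adsl (6.69 to 7.84 FPKM) also overlapped. All other neighbours in either order had intervals that lay apart.

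These levels rest on the length by which reads were divided. Reads came out whole when FPKM was multiplied by the length of all annotated exon sequence of a gene, which for some members is far longer than the messenger RNA. For Dhodh it is 6326 nt, 3.10 times the principal transcript of 2039 nt, and for Atic 7985 nt, 2.81 times the 2845 nt of its transcript, while for Umps both are 3484 nt. Per kilobase of the principal transcript Atic was at 34.4 in the low and 38.4 in the high library and took rank 3, Dhodh was at 6.09 and 7.55 and took rank 8, and Pfas became the lowest at 3.56 and 4.20. With this length 7 of the 10 members moved in rank in the low library and 8 in the high library, and in both Paics and Impdh2 stayed first and second. Paics was then 20.3 times the lowest member in the low library. Ratios between the libraries do not depend on the length.

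**Figure D4:**
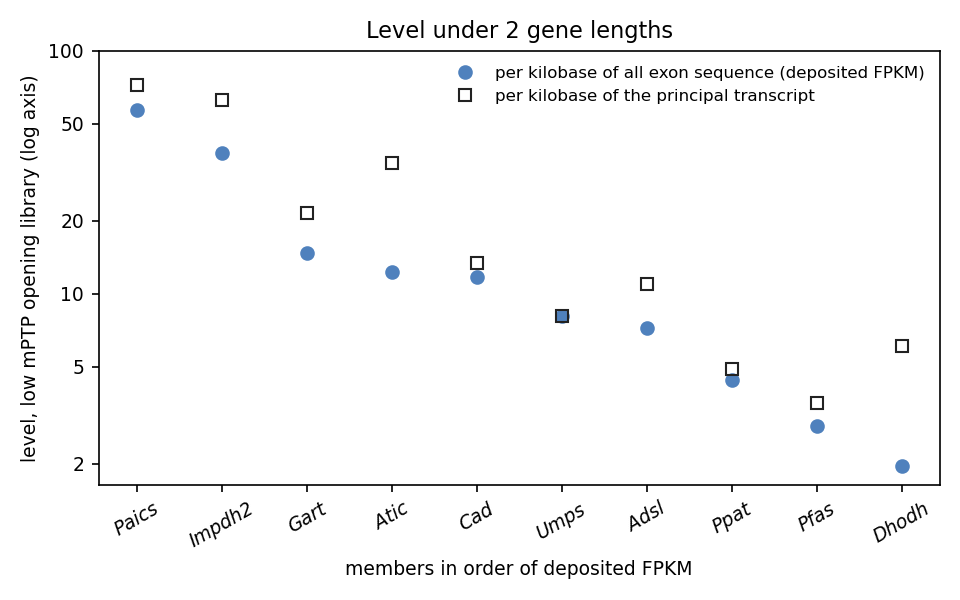
Level of each member in the low mPTP opening library on a log axis, per kilobase of all annotated exon sequence (blue circles, the deposited FPKM) and per kilobase of the principal transcript (open squares), with members in order of FPKM. The squares stand well above the circles for Atic (34.4 against 12.3) and Dhodh (6.09 against 1.96).

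Ppat and Paics lie head to head and overlap. Their annotated starts are 271 bases apart, each inside the other gene, and 272 nt of exon are shared, 6.15% of the exon sequence of Ppat and 8.67% of that of Paics. Paics was at 13.0 times the FPKM of Ppat in the low and 11.9 times in the high mPTP opening library, and their ratios between libraries were 1.06 and 1.16 with overlapping intervals. Whether counting used strand is not given in the sources used here, so reads from the shared stretch may have been given to either gene. Gart shares 1014 nt, 19.7% of its exon sequence, with the antisense gene Gm15964, which was at 0.222 FPKM or less in both libraries. Umps shares 213 nt, 6.11%, with the antisense gene Gm15829, at 0.153 FPKM in the low library and listed at 0 in the high one. The deposited annotation gives both antisense genes the synthesis terms of their partners: of 8 genes under de novo IMP synthesis 6 were members, and of 4 under de novo UMP synthesis 3 were.

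The other enzymes from IMP to AMP and GMP and from uridine to cytidine triphosphate (CTP) were less uniform. Of 6 measured genes 4 had a positive difference, 1 was higher and 1 lower, and the median was 0.10. Ctps, the CTP synthase that takes the pyrimidine route to cytidine nucleotides, was at 31.8 FPKM in the high and 21.1 FPKM in the low mPTP opening library. Its ratio of 1.51 (1.40 to 1.63) overlaps the interval of Cad. Its paralog Ctps2 was at 9.66 and 10.1 FPKM, a ratio of 0.954 (0.860 to 1.06). Impdh1, the other IMP dehydrogenase, had a ratio of 1.15 (1.05 to 1.26), Gmps, the GMP synthetase, 1.11 (1.03 to 1.19), and Adss, an adenylosuccinate synthetase, 1.04 (0.977 to 1.12). Adssl1, the form known from muscle, had a ratio of 0.420 (0.274 to 0.629), from 1.05 against 2.50 FPKM. The processed pseudogene Gm15210 carries the same GMP synthesis term as Gmps in the deposited annotation, at 3.36 against 1.89 FPKM, and if it is a copy of Gmps the 2 may share reads.

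Genes that supply the building blocks showed several differences in the same direction. In the folate one-carbon list 12 of 14 measured genes were positive, 4 were higher and 0 lower, and the median was 0.22. Shmt2, the mitochondrial serine hydroxymethyltransferase, had a ratio of 1.36 (1.29 to 1.43), from 73.8 against 54.3 FPKM, and Mthfd2, the mitochondrial methylene-folate dehydrogenase, had a ratio of 1.32 (1.23 to 1.42). Fpgs, which retains folates in the cell by adding glutamates, had a ratio of 1.38 (1.17 to 1.62). Among 10 serine, glutamine and aspartate supply genes 8 were positive, with 2 higher, 1 lower and a median of 0.21. Psat1 of serine synthesis had a ratio of 1.59 (1.51 to 1.66) and Phgdh, which starts that route, was at 114 against 87.5 FPKM, while glutamine synthetase Glul had one of 0.716 (0.661 to 0.776), from 19.9 against 27.8 FPKM.

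The genes of PRPP synthetases and their associated proteins did not lie on one side. Of 5 measured genes 3 were positive, with 1 higher, 1 lower and a median of 0.06. Prpsap1 and Prpsap2, with log2 differences of 0.06 and -0.03, encode associated proteins and not synthetases. Prps1 had a ratio of 1.30 (1.14 to 1.48), at 16.6 against 12.8 FPKM. Prps2 had one of 0.671 (0.594 to 0.759), at 7.21 against 10.7 FPKM. The intervals of these paralogous synthetases thus lie on opposite sides of 1. Prps1l3 had a ratio of 1.19 (1.03 to 1.38) and is a close relative of Prps1, so these 2 may share reads; 10.8% of its exon sequence is also shared with Mipol1.

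Downstream of the members, deoxynucleotide and thymidylate synthesis had 7 of 8 genes positive, 4 higher and 0 lower, and its median was 0.31. Rrm2 and Rrm1, the subunits of ribonucleotide reductase, had ratios of 1.59 (1.48 to 1.72) and 1.39 (1.32 to 1.46), and Dut, the dUTPase, 1.42 (1.23 to 1.63). Nucleoside mono- and diphosphate kinases had a median of 0.06 over 13 measured genes, with 8 positive, 1 higher and 3 lower. The 3 lower ones were the mitochondrial kinases Nme4, at 10.7 against 15.3 FPKM, and Ak4, at 2.44 against 3.54 FPKM, and the adenylate kinase Ak1, at 18.1 against 24.1 FPKM.

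No gene of the salvage lists was higher or lower, which also held for the 7 purine members. Purine salvage had 3 of 5 measured genes positive, 0 higher or lower, and a median of 0.02, with Mtap, which recovers adenine from methylthioadenosine, at a ratio of 1.20 (1.11 to 1.30). Adk, adenosine kinase, had a ratio of 1.13 (1.09 to 1.17) and Dguok, the mitochondrial deoxyguanosine kinase, 0.946 (0.799 to 1.12). Pyrimidine and deoxynucleoside salvage had 4 of 7 positive, 0 higher or lower and a median of 0.13. Uck2, a uridine-cytidine kinase, had a ratio of 1.26 (1.17 to 1.36), with 17.9 against 14.1 FPKM, which is just short of 25% on the log2(FPKM + 1) scale. The count of higher genes in this list became 1 with a pseudocount of 0.1 FPKM and under each of 4 other scalings of the libraries. The thymidine kinases Tk1 and Tk2 had ratios of 1.16 (1.02 to 1.31) and 0.877 (0.740 to 1.04). That the synthesis and salvage lists differ was not tested.

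In the nucleotide breakdown list 8 of 11 measured genes were negative and 1 was lower. Its median of -0.08 became 0.04 when both libraries were scaled to a common sum. Ampd3, an AMP deaminase, had a ratio of 0.572 (0.422 to 0.771), at 0.803 against 1.40 FPKM. The nucleotidases Nt5c and Nt5e had ratios of 0.797 (0.705 to 0.902) and 0.734 (0.596 to 0.902). Of 7 nucleoside transporters 3 were measured, with a median of 0.02, and the ratios of Slc29a1, Slc29a2 and Slc29a3, which were 0.941, 1.26 and 1.01, all had intervals that held 1.

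**Figure D5:**
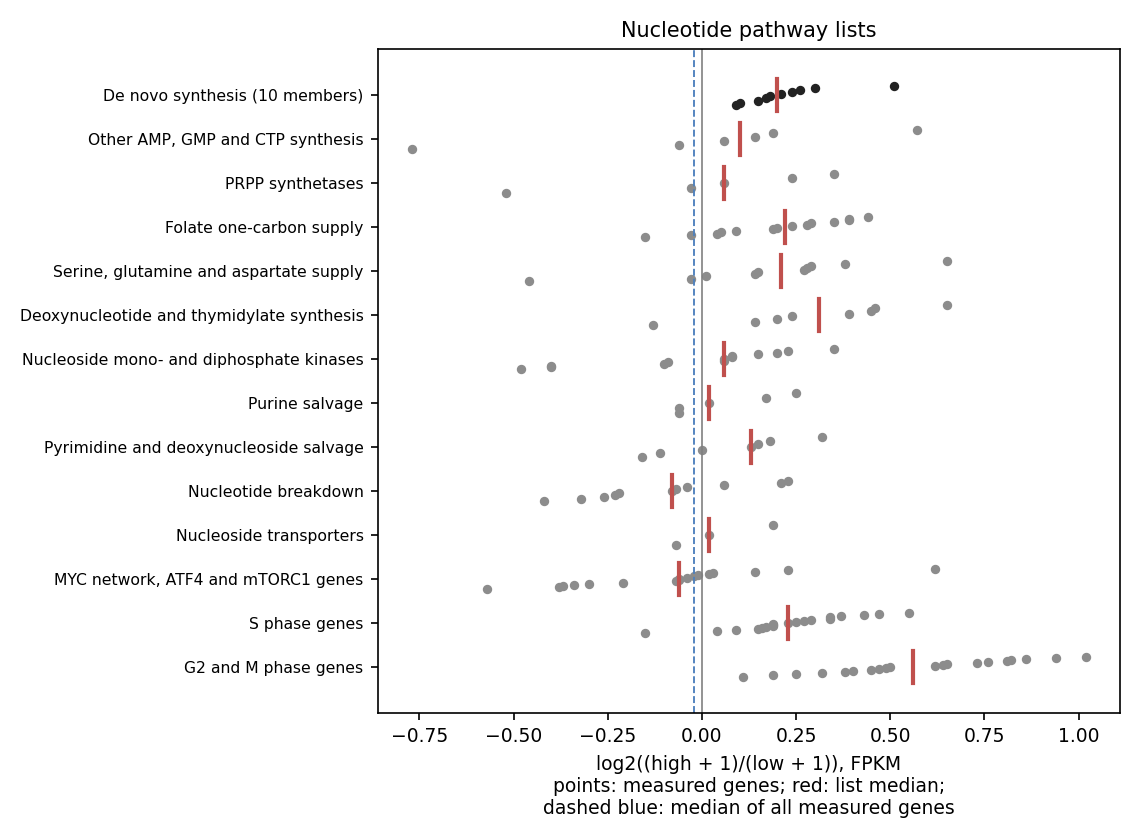
Log2((high + 1)/(low + 1)) of FPKM for each measured gene (points) of the 10 members and 13 lists of related genes, with list medians in red and the median of all measured genes, -0.02, as a dashed line. The members lie between 0.09 and 0.51, near one-carbon and S phase genes, while G2 and M phase genes reach 1.02.

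The MYC network, ATF4 and mTORC1 list, the genes behind known regulators of these enzymes, had 5 of 17 measured members positive, 1 higher and 4 lower. Its median of -0.06 became 0.06 after scaling to a common sum. Myc had a ratio of 0.764 (0.686 to 0.851), so its transcript was lower in the high mPTP opening library. The part of these regulators in the members' differences was not tested. Mxd3, Mxd4 and Mxi1 encode MAX partners that oppose MYC. Mxd3 was at 8.19 against 4.98 FPKM, with a ratio of 1.64 (1.36 to 1.99), while Mxd4 was at 7.18 against 11.1 FPKM and Mxi1 at 2.97 against 4.16 FPKM.

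Cell cycle genes lay on the same side as the members. S phase genes had 18 of 19 measured genes positive, 6 higher, 0 lower and a median of 0.23, close to the 0.20 of the synthesis enzymes. Uhrf1, which maintains DNA methylation at replication, was at 20.4 against 13.6 FPKM. Cdc45 and Cdc6, needed to start replication, had ratios of 1.45 and 1.51. All 20 G2 and M phase genes were positive, 17 of them higher, and their median was 0.56. Kif20a, Cdc20 and Bub1b led them, with ratios of 2.12, 1.96 and 1.89, although 29.3% of the exon sequence of Kif20a is shared with Cdc23 on the opposite strand. The part of cell cycle state in the members' differences was not tested, and in bulk RNA more cells of a kind and more RNA per cell cannot be told apart.

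The libraries also differed in markers of other cell types, whose part in the members' values was not tested. The fibroblast label fitted the markers, with Col1a1 at 3204 and 3059 FPKM Col1a2 at 1279 and 1252 FPKM and Col3a1 at 711 and 939 FPKM in the high and low libraries, and 10 of 10 markers measured at a summed 6965 and 7015 FPKM. Of the 10, Thy1 was higher and 3 were lower, Col3a1, Dcn and Lum, of which 2 by at least 1.5-fold; Thy1, Dcn and Lum are named after their values were seen. All 16 macrophage markers were lower in the high library, at a summed 539 against 1084 FPKM, led by Lyz2 at 136 against 301 FPKM, C1qa and C1qb. Mesothelial markers were lower for 7 of 7, at 17.6 against 41.5 FPKM, with Upk3b, Msln and Upk1b highest, and Schwann cell markers for 4 of 4 measured of 7, at 1.74 against 13.8 FPKM, with Sox10 and Cdh19 among them. None of the markers of these 3 cell types was at 0 in either library. Smooth muscle and pericyte markers summed to 2157 against 1289 FPKM, mostly Acta2, with Actg2 and Cnn1 next, and 5 of 12 were higher and 3 lower. The 3 lower ones were Kcnj8, Abcc9 and Notch3, with log2 differences of -0.46, -0.56 and -0.54, named after their values were seen. The sum thus does not describe the list as a whole. Endothelial markers, led by Kdr, Tek and Emcn, summed to 1.95 against 2.40 FPKM with Tie1 at 0 in the high library. They did not lie on one side, with Tek at 0.311 against 0.916 FPKM and Emcn at 0.542 against 0.110 FPKM. Keratinocyte markers, led by Krt14, Krt15 and Cdh1, summed to 0.724 against 1.40 FPKM with Krt5 at 0 in the low library.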

How the data were processed

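Per the labels' protocols, RNA was harvested with TRIzol and libraries came from the Illumina TruSeq kit. The authors deposited 1 table of FPKM values, and its 2 columns were matched to the 2 libraries by name. The submitters' processing notes name Bowtie2 2.2.3, TopHat2 2.0.12 and build mm10. How reads were counted, over which annotation and with which strand setting, is not given in the sources used here. Positions are those of the deposited table, and 9 of the 10 members had the same position in GENCODE M21.

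The FPKM steps times GENCODE M21 exon length gave depth denominators of 15060435 (low) and 16375735 (high) reads or fragments, with 93.1% and 93.4% of genes of up to 20 reads whole within 0.05 reads. Over genes of any read number 85.7% were whole in each library. Of the members 8 came out whole; Adsl and Gart were rounded, so their intervals are approximate. Intervals are exact: Clopper-Pearson for ratios given summed reads, Poisson for levels, at 95%. They cover counting error only, and not variation between sorts or cultures. PCR copies are not independent molecules, so the intervals may be too narrow even for counting error. A count of 3 reads is 0.183 to 0.199 FPKM for a gene of 1 kilobase.

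Rows of 1 symbol were added. Differences are log2((high + 1)/(low + 1)). Members and lists (13 related lists, 7 marker lists) were chosen with earlier results of these data known. All members are named, as are measured genes of the AMP, GMP and CTP list, up to 3 genes with the largest differences in each other list with Myc added, and the 3 highest markers per cell type, of which 1 is not reported here. Principal transcripts are the longest annotated as such. Scripts were tested on simulated reads. Software was matplotlib 3.10.9, SciPy 1.17.1, pandas 2.3.3 and NumPy 2.4.6 under Python 3.11.15.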

Additional observations from a re-analysis of the deposited data

How the results depend on the processing

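Alternatives were pseudocounts of 0.1 and 5 FPKM, 4 scalings and 2 filters. All 10 members kept a positive difference under every pseudocount and scaling, as did the 7 whose mean was 5 FPKM or more. This does not check the direction, because a pseudocount or a filter cannot change the sign of a difference. The only downward shift by a scaling was -0.00326 on the log2 scale, too small to reverse the smallest member difference, 0.09 for Paics. The members higher by at least 25% numbered 2, Cad and Umps, with a pseudocount of 0.1 FPKM, and with libraries scaled to the median ratio, to a trimmed mean or to a sum of 1000000 without mitochondrially encoded and short genes, settings under which 7.53% to 8.59% of measured genes were as much higher. They numbered 6 after scaling to a sum of 1000000 with all genes, against 16.1% of measured genes. Under that scaling 1 member, Cad, was also higher by 1.5-fold or more, and the share of measured genes past this larger size was not counted. That last scaling adds 0.12 to every log2 ratio, moved the member median to 0.35 and the median of all measured genes to 0.09, and took higher genes from 33.1% (784 higher, 1584 lower) to 59.9% (1921 higher, 1284 lower) of all called at the smaller size. Otherwise the member median ran from 0.11 to 0.25, and from 0.18 to 0.21 with each member left out in turn. The order of members by level differed at 2 ranks between the libraries, and, per kilobase of the principal transcript, at 7 ranks in the low and 8 in the high library, an alternative added after seeing the data. Of the counts of higher or lower genes in related lists under the alternatives, 27 moved by over 1.5 times or to or from 0, and 181 did not. S phase genes higher numbered 12 after scaling to a sum of 1000000 and 1 with a pseudocount of 5 FPKM, and one-carbon genes 8 and 2, against 6 and 4. Among related lists the medians changed sign for nucleotide breakdown (0.04) and the MYC network list (0.06) after scaling to a sum of 1000000, and for nucleoside transporters (-0.03) with a filter of 5 FPKM on the mean. The endothelial median, from 1 gene, turned to 0.01 after scaling to a sum of 1000000; marker lists under these settings were also added after seeing the data. No paired analysis was possible because each group has 1 library. With 1 library per group the differences cannot be separated from variation between sorts or cultures.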
